A study of Mus musculus with 6 samples.

Results

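The transcripts described here are those of pro-opiomelanocortin, Pomc, and of genes for peptide processing enzymes of secretory granules and for proteins that bind or inhibit such enzymes. Members were the genes named Pomc, Pcsk1, Pcsk2, Cpe, Pcsk1n, Scg5, Ctsl and Qpct in the deposited expression sheet, 8 genes of 23349, each present once. The line used, AtT-20 iPAM, derives from a mouse pituitary tumour of corticotropes, can be induced with doxycycline to make more PAM (peptidylglycine alpha-amidating monooxygenase), and was kept in G418 and hygromycin. The 3 basal libraries had no doxycycline, and the 3 induced libraries came from cells given 4 micrograms per ml of it for 48 h, so doxycycline and raised PAM cannot be told apart. Whether the line is 1 clone, and whether the replicates were separate cultures, is not stated in the labels. The p-values therefore cover the spread of these libraries, and that spread may be technical. Basal 1 to 3 and induced 1 to 3 are the column names of the sheet. A depth of 16.6 M reads per library is stated in the labels. Levels are in TPM, which express each transcript as its share of a fixed total per library and so keep no depth.

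Corticotropes make the prohormone pro-opiomelanocortin and sort it into dense-core granules. There, prohormone convertases cut it after pairs of basic residues, carboxypeptidase E removes the basic residues left at the new ends, and PAM amidates fragments that end in glycine. The convertase Pcsk1 yields adrenocorticotropic hormone and beta-lipotropin, and the convertase Pcsk2, the main one of melanotropes, cuts further to the melanocyte-stimulating hormone and beta-endorphin peptides.

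The cells carried the markers of the label. Over the 6 libraries Tbx19, the corticotrope transcription factor that switches on Pomc, stood between 534 and 639.7 TPM, and Crhr1, the receptor for corticotropin-releasing hormone, between 36.4 and 49.6 TPM. Avpr1b, a vasopressin receptor of corticotropes, was listed at 0 in all 3 basal libraries and at 0.0845 TPM at most in induced ones. The melanotrope factor Pax7 was low, between 1.61 and 3.16 TPM, and Drd2, the dopamine receptor of melanotropes, was listed at 0 throughout. The 12 markers of other pituitary and non-pituitary cell types summed to between 3.88 and 5.95 TPM in basal and between 1.85 and 2.39 TPM in induced libraries, most of it the collagen gene Col1a1, and Pou1f1, Tshb and Fshb were listed at 0. That sum differed between the groups without overlap, and its part in the results was not tested. Pam itself was at 92.6, 82.8 and 66.9 TPM without and at 507, 399 and 258 TPM with doxycycline.

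The start regions of 2 members are shown, those of Pomc, the substrate, and of Pcsk1, its convertase, the pair whose balance is described further on. Both run 5′ to 3′ from 250 bases before the start of transcription to 50 bases after it (RefSeq, GRCm38.p6, plus strand), at chr12:3954695-3954994 for Pomc and chr13:75089607-75089906 for Pcsk1. Capitals mark matches, on either strand, to the TATA box (TATAAA), the E-box (CANNTG) bound by factors such as Neurod1, and the half-site of the cAMP response element (TGACG).
Pomc: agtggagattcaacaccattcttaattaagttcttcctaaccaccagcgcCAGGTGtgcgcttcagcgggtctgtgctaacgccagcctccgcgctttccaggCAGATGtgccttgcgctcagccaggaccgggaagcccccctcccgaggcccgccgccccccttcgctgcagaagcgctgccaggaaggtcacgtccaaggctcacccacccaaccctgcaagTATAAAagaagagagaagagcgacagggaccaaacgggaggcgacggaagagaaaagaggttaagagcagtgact
Pcsk1: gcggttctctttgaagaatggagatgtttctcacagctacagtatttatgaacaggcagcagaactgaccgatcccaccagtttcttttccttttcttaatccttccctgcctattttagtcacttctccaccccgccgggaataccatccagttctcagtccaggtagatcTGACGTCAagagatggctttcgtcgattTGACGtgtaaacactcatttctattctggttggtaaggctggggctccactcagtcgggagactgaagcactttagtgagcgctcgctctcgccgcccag
The Pomc region held 1 TATA box, whose first base lies at position -25 from the start, and E-boxes at -200 and -147. The Pcsk1 region held 3 half-sites, of which those at -78 and -75 overlap and form 1 full cAMP response element (TGACGTCA), while the third lies at -50. Of 32851 promoter windows of the same length, 13.6% held the TATA box, 72.3% an E-box, 20.8% a half-site and 1.79% the full element. Neither window held the letters of the AP-1 site (TGANTCA, in 7.81% of all windows) or of the NBRE bound by Nr4a receptors (AAAGGTCA, in 1.51%). Only exact matches inside the windows were counted, so sites with other letters or further from the start would be missed. Promoter windows were matched for 6 of the 8 members. Half-sites were not particular to Pcsk1, since the window of Scg5 held 3 and that of Pcsk2 held 1. Those of Ctsl and Pcsk1n held 0, and that of Pcsk1n held 1 AP-1 site, at -234.

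The libraries numbered 3 stood apart from the others in both groups, and same-numbered libraries deviated from their group means together (correlation over 12400 genes 0.46, 0.18 and 0.72 for numbers 1, 2 and 3). The third number stood out, with 0.72. The values of -0.61 and -0.41 for basal 3 with induced 1 and 2 are no separate evidence. Deviations from a group mean cancel out within the group, so these values follow in part from the 0.72. Numbers 1 and 2 were not set apart from each other, since basal 1 with induced 2 gave 0.32 and basal 2 with induced 1 gave 0.28, both above 0.18. Results are therefore given beside a fit with the column number as a block and, where they rest on them, without the libraries numbered 3. The labels do not tie equal numbers to a shared origin.

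Pomc had the highest TPM of the sheet in every library. It stood at 21916, 25578 and 31055 TPM in basal libraries and at 20766, 20446 and 29239 TPM in induced ones. The highest value of each group came from the library numbered 3, and the groups overlapped. Induced minus basal gave -0.16 on the log2(TPM + 1) scale (SE 0.19; 95% interval -0.61 to 0.29), which limma did not call (adjusted p = 0.791). With the block its interval ran from -0.33 to 0.00082 (limma adjusted p = 0.137). Within the same number, the change from basal to induced was -5.25%, -20.1% and -5.85%. In cell populations, fewer cells that make a transcript and less of it per cell cannot be told apart.

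**Figure D1:**
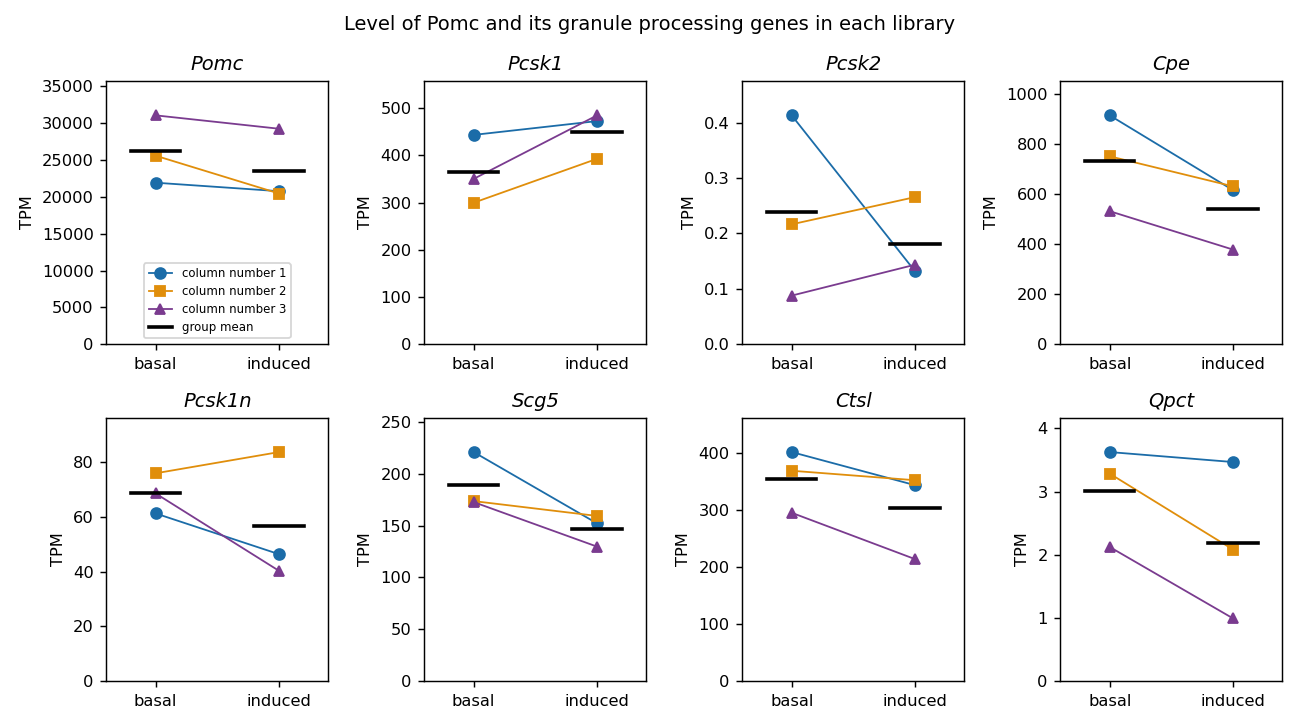
Level of each of the 8 genes in TPM (y axis, linear from 0, own scale per panel) in basal and induced libraries; lines join libraries with the same column number and black bars are group means. Pomc was highest in the libraries numbered 3, whereas Cpe, Ctsl and Scg5 were lowest there in both groups.

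Pcsk1, the convertase that starts the cutting of pro-opiomelanocortin, was the 1 member of the 7 tested with a positive difference. Its values were 444, 299.9 and 350.4 TPM in basal and 473, 393 and 485 TPM in induced libraries. Each induced library was above the basal one of its number, by 6.60%, 31.0% and 38.4%, although basal 1 exceeded induced 2. Numbers 1 and 2 were not set apart from each other, so this order and the blocked fit rest on the numbering as given. Other pairings were not fitted. Its log2 difference of 0.32 (SE 0.18; 95% interval -0.10 to 0.73) was not called (limma adjusted p = 0.488). With the block it passed the threshold (SE 0.093; 95% interval 0.11 to 0.53; limma adjusted p = 0.0384). That call ended when both libraries numbered 2 or both numbered 3 were left out (limma adjusted p = 0.164 and 0.157), and stayed without those numbered 1 (0.0185).

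Pcsk2, the second convertase, was close to 0. It stood at 0.413, 0.216 and 0.0877 TPM in basal and at 0.132, 0.266 and 0.144 TPM in induced libraries, below the mean of 1 TPM required for testing. In mm10 its gene model spans antisense transcripts, and the sources used here do not say whether strand was used in counting. Scg5 encodes 7B2, the chaperone that binds the Pcsk2 proenzyme, and its transcript was detected throughout. It stood at 221, 174 and 173 TPM in basal and at 152, 159.5 and 129.8 TPM in induced libraries. These groups did not overlap, which held for 1 of the 7 members tested and for 21.6% of all genes tested (12.6% with induced lower and 9.04% with induced higher). The means were 189 ± 27.7 and 147 ± 15.5 TPM (SD, n = 3 each), a ratio of 0.778. The log2 difference of -0.36 (SE 0.16; 95% interval -0.72 to 0.0094) did not pass without the block (limma adjusted p = 0.344). With the block Scg5 passed as lower (limma adjusted p = 0.0313), a call that ended without the libraries numbered 1 or 3 (limma adjusted p = 0.206 and 0.120).

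Cpe, the carboxypeptidase that trims basic residues, had the most negative log2 difference of the members at the pseudocount of 1 (at 0.1 it was -0.44, and Qpct was at -0.57). Its levels were 913, 749.6 and 531 TPM in basal and 614, 629.7 and 377 TPM in induced libraries. The library numbered 3 was the lowest of each group, and the groups overlapped because basal 3 lay below induced 1 and 2. Within the same number the change was -32.7%, -16.0% and -28.9%. The log2 difference of -0.44 (SE 0.27; 95% interval -1.07 to 0.20) was not called (limma adjusted p = 0.536). With the block Cpe passed as lower (SE 0.086; 95% interval -0.63 to -0.24; limma adjusted p = 0.00783). It was also called with the block when both libraries of any 1 number were left out, with limma adjusted p between 0.0240 and 0.0491. Those settings were chosen after seeing the data, and between 1425 and 1799 of the 12400 genes were called in them. Without the libraries numbered 3 and without the block Cpe did not pass (log2 difference -0.41, limma adjusted p = 0.0908).

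Pcsk1n encodes proSAAS, an inhibitor of the Pcsk1 enzyme. It stood at 61.3, 76.0 and 68.6 TPM in basal and at 46.4, 83.8 and 40.3 TPM in induced libraries. Induced 2 was above every basal library and the other two induced libraries were below all of them, so the induced spread was wider (SD 23.5 against 7.35 TPM, n = 3 each). The log2 difference was -0.34 (SE 0.27; limma adjusted p = 0.670, and 0.137 with the block). With the block and without both libraries numbered 2, Pcsk1n was called lower at -0.57 (limma adjusted p = 0.0396). That setting was chosen after seeing the data and drops the only number in which induced lay above basal (by 10.2%). The call is therefore no separate evidence, and 952 of the 12400 genes were called lower in that setting. The gene model of Eras lies on the opposite strand within the Pcsk1n locus, and Eras was listed at 0 in 5 of the 6 libraries and at 0.177 TPM in basal 3.

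The last pair of members act on peptides by other chemistries. Ctsl, the cysteine protease cathepsin L of lysosomes, which also acts on pro-opiomelanocortin in secretory vesicles, stood at 401, 368 and 295 TPM in basal and 343, 352 and 213 TPM in induced libraries. The libraries numbered 3 were the lowest of each group, and the groups overlapped. The log2 difference was -0.25 (SE 0.23; limma adjusted p = 0.711, and 0.0842 with the block). Qpct, the glutaminyl cyclase that forms pyroglutamate at peptide ends, was low at 3.63, 3.28 and 2.12 TPM in basal and 3.47, 2.08 and 0.990 TPM in induced libraries. Its log2 difference was -0.39 (SE 0.32; limma adjusted p = 0.671, and 0.147 with the block). For Qpct the added 1 TPM shrinks the log2 difference, and the ratio of means was 0.724.

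Taking the members in one count, 0 of the 7 tested passed the limma threshold of adjusted p under 0.05, against 1.19% of the 12400 genes tested (0.129% higher and 1.06% lower). An unadjusted limma p under 0.05 was found for 0 of the 7, against 1871 of the 12400 genes. With the block 3 of 7 passed, Pcsk1 as higher and Cpe and Scg5 as lower, against 22.3% of all genes (8.23% higher and 14% lower). The unadjusted limma p with the block was under 0.05 for 4 of the 7, against 4577 of the 12400 genes. The log2 difference was negative in 6 of 7, against 55.1% of all genes, and the median of the members was -0.34 against -0.04 for all genes tested. In 5 of 7 members, namely Pomc, Cpe, Scg5, Ctsl and Qpct, each of the 3 induced libraries was below the basal one of its number, against 32.6% of all genes. Pcsk1 alone among the 7 was above in each, against 23.6% of all genes. These counts rest on the numbering as given, in which numbers 1 and 2 were not set apart. Across those numbers, induced 2 was below basal 1 for Pcsk1, and induced 1 was above basal 2 for Qpct. The members were chosen with earlier results of these data known, so the counts are descriptions and not tests. The authors' deposited tables of called genes have 1548 rows from Cuffdiff, 195 from DESeq2 and 146 from limma. These and the core list of 57 rows, any header line included, hold 0 of the 8 members, and Pam is in none of them either.

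**Figure D2:**
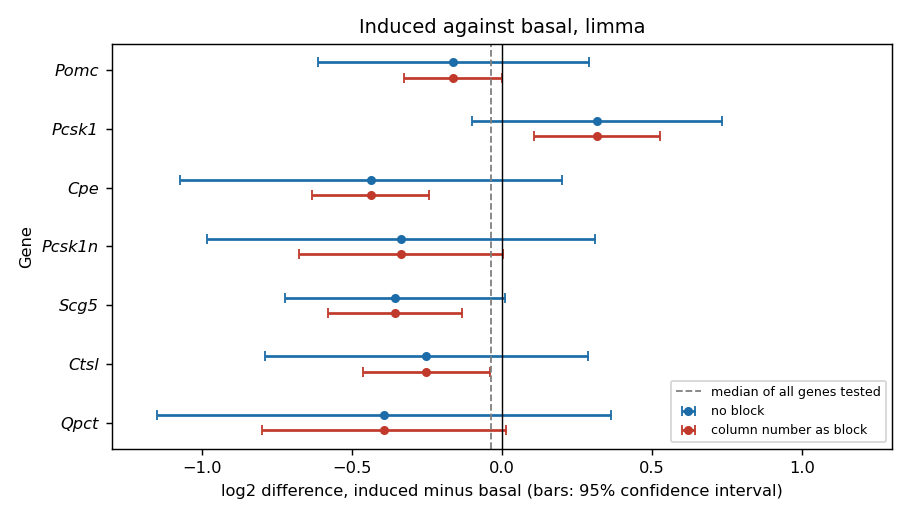
The log2(TPM + 1) difference of induced minus basal (x axis) for the 7 members tested, with 95% confidence intervals from limma without a block (blue) and with the column number as a block (red); the dashed line is the median of all genes tested, -0.04. Without the block every interval includes 0, and with it those of Pcsk1, Cpe, Scg5 and Ctsl do not.

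Rescaling each library by the median ratio left the 7 signs in place, with Pomc at -0.12, Pcsk1n at -0.29, Scg5 at -0.31, Ctsl at -0.21, Qpct at -0.37, Cpe at -0.39 and Pcsk1 at 0.36, and quantile normalization left those of the 6 genes other than Pomc. The signs of 5 members did depend on a common shift of one group. A log2 offset of 0.42 was found between the authors' deposited DESeq2 table and the ratios of mean TPM. It is a median over the 195 called genes of that table. Whether it holds for other genes, or is one of library scale, was not tested. Shifting the induced libraries by that offset moved the median of all genes to 0.39. The shift turned 5 of the 6 negative differences positive: Pomc to 0.26, Ctsl to 0.17, Pcsk1n to 0.09, Scg5 to 0.07 and Qpct to 0.03. On that scale Pcsk1 was called higher (0.74; limma adjusted p = 0.0336), as were 18.3% of all genes tested, against 1% called lower and 19.3% in all. Such a shift moves each gene and the median alike. Relative to the median of all genes, the differences were therefore the same with and without it, at 0.35 for Pcsk1, -0.13 for Pomc, -0.21 for Ctsl, -0.30 for Pcsk1n, -0.32 for Scg5, -0.35 for Qpct and -0.40 for Cpe.

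Column number separated the libraries more than induction did for 6 of the 7 members. Of the sum of squares of Pomc over the 6 libraries, 82.5% lay between column numbers and 11.8% between basal and induced. For Ctsl the shares were 74.4% and 18.0%, for Qpct 70.2% and 21.1%, and for Cpe 66.7% and 30.4%. Pcsk1n had 54.9% between numbers and 20.6% between groups, and Pcsk1 48.2% and 41.0%. Scg5 was the exception, with 26.5% between numbers and 59.5% between groups. Over all genes tested the medians were 62.4% between numbers and 18.2% between groups. A difference between 3 numbers takes up more of any spread than one between 2 groups, so the shares describe these libraries and are not tests.

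**Figure D3:**
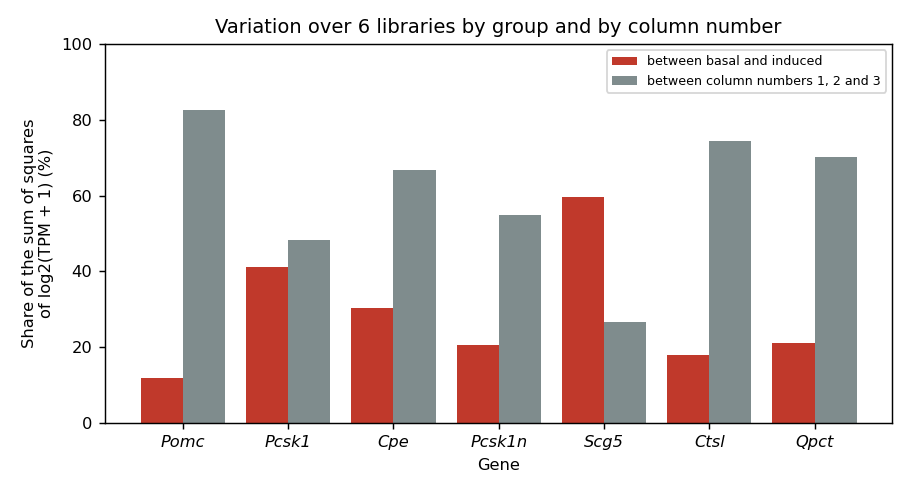
Share of the sum of squares of log2(TPM + 1) over the 6 libraries (y axis, percent) that lies between basal and induced (red) and between the column numbers (grey) for the 7 members tested. The grey bar is the taller one for each gene except Scg5, and reaches 82.5% for Pomc.

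The direction of the number effect was not the same for all members. The levels are given next as log2(TPM + 1) minus the mean of the gene over the 6 libraries. In basal 3 and induced 3 Pomc stood at 0.34 and 0.26 above its mean. In the same libraries Cpe stood at -0.21 and -0.70, Ctsl at -0.13 and -0.59, and Qpct at -0.15 and -0.80. Scg5 stood at 0.06 in basal 3 and -0.35 in induced 3, and Pcsk1 at -0.20 and 0.27. Thus the libraries with most Pomc transcript had the least Cpe, Ctsl and Qpct transcript of their group.

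**Figure D4:**
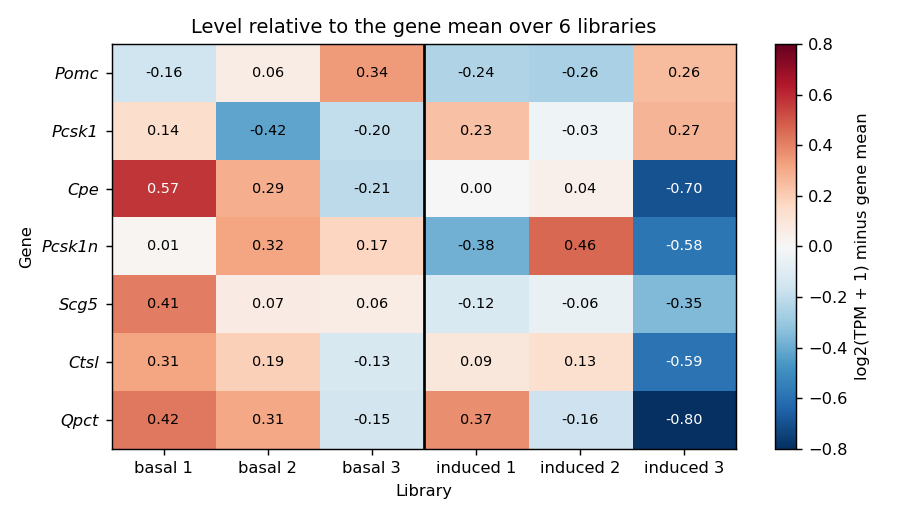
Level of the 7 members tested in each library as log2(TPM + 1) minus the gene mean over the 6 libraries (colour and printed value; red is above the mean, blue below). Pomc is above its mean in basal 3 and induced 3 (0.34 and 0.26), where Cpe, Ctsl and Qpct are below theirs.

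The balance of each other tested member to Pomc was read as the log2 ratio of TPM + 1 to that of Pomc within a library. From this ratio the scale of the library cancels except for low genes such as Qpct. The ratios serve to compare libraries and are not read as relative abundance of the proteins or transcripts. For Pcsk1 the ratios were -5.62, -6.41 and -6.47 in basal and -5.45, -5.70 and -5.91 in induced libraries. The difference of induced minus basal was 0.48, and the groups overlapped (exact two-sided permutation test p = 0.3, adjusted p = 0.8 over 6 ratios). For Cpe the ratios were -4.58, -5.09 and -5.87 in basal and -5.08, -5.02 and -6.27 in induced libraries, a difference of -0.27 (exact permutation p = 0.7, adjusted p = 0.8). The differences of Scg5, Pcsk1n, Ctsl and Qpct lay between -0.23 for Qpct and -0.09 for Ctsl (exact permutation p between 0.7 and 0.8, adjusted p = 0.8). For Qpct the difference was -0.41 at a pseudocount of 0.1. The smallest p that 3 libraries against 3 allow is 0.1. Within the same number the Pcsk1 ratio was higher in the induced library by 0.17, 0.71 and 0.55 (exact two-sided sign-flip permutation p = 0.25, the smallest that 3 numbers allow), and the corresponding exact p of the other ratios lay between 0.5 and 0.75. The Pcsk1 order rests on the numbering as given, since its ratio in induced 2 (-5.70) was below that in basal 1 (-5.62). For Pcsk1 the induced minus basal difference stayed positive when any 1 library was left out, between 0.33 and 0.75. Without induced 3 the differences of the other 5 turned positive, at 0.13 for Cpe, 0.06 for Scg5, 0.20 for Pcsk1n, 0.31 for Ctsl and 0.24 for Qpct. Without basal 1 those of Cpe, Scg5, Ctsl and Qpct were positive as well, at 0.02, 0.04, 0.13 and 0.0047.

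**Figure D5:**
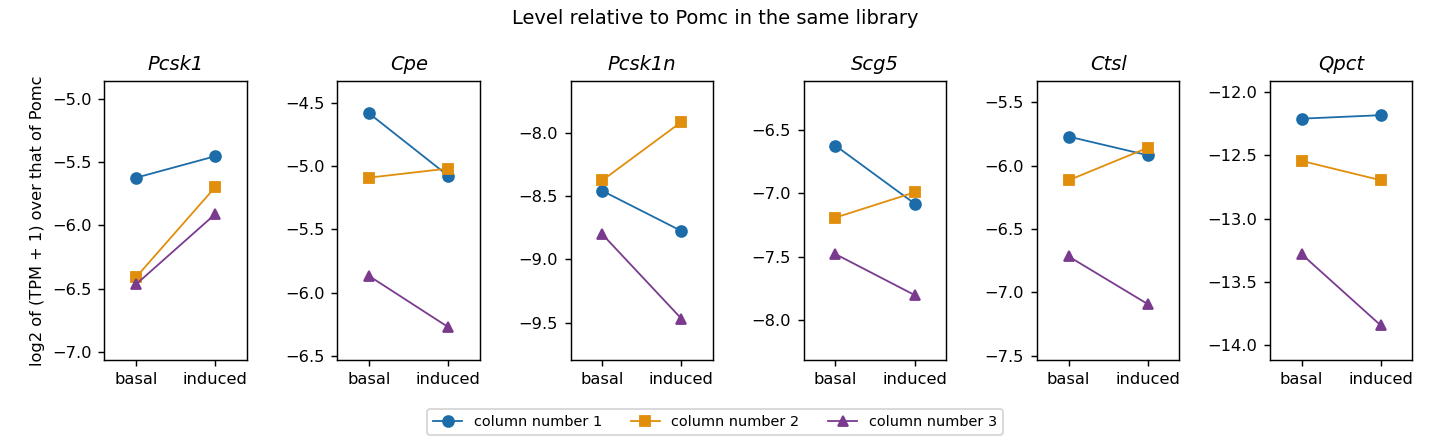
The log2 ratio of each gene to Pomc within a library, from TPM + 1 (y axis, each panel spanning the same range of log2 units), with lines joining libraries of the same column number. Pcsk1 is higher in the induced library of each number, while for Cpe, Scg5, Ctsl and Pcsk1n the libraries numbered 2 go the other way from those numbered 1 and 3.

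Likeness of pattern was taken as the root mean square difference of centred log2(TPM + 1) over the 6 libraries, among the 9048 genes that averaged 10 TPM or more. Nearest to Pomc were Nucb1, which encodes the Golgi calcium-binding protein nucleobindin 1, at 0.035, then Slc38a10 and Thap4 at 0.035 and 0.036. The nearest member was Scg5 at 0.37, with 5008 genes nearer than it. Nearest to Pcsk1 were Atf7ip, 1810030O07Rik and Mavs, at 0.063, 0.067 and 0.076. Nearest to Cpe were Bloc1s4, Pnrc2 and 1600012H06Rik, at 0.031, 0.042 and 0.046. Cpe and Ctsl were each other's nearest member, at 0.13, with 193 genes nearer to Cpe and 472 nearer to Ctsl. Nearest to Scg5 were Ginm1, Hat1 and Pdcd4, to Ctsl Dap3, Cdan1 and Anxa7, and to Pcsk1n Erdr1, Gm20605 and Hmx2.

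Other proteases and trimming enzymes of the pathway were described beside the members. Of 22 such genes, 17 were tested, 1 passed as lower and 0 as higher (1.06% and 0.129% of all genes tested), and their median log2 difference was 0.04. The one that passed was Pcsk6, a convertase of the constitutive pathway, at 2.15, 1.76 and 1.74 TPM in basal and 0.349, 0.545 and 0.330 TPM in induced libraries (log2 difference -1.03, SE 0.17, limma adjusted p = 0.0447). Pcsk6 lay near the floor and met the required mean of 1 TPM only through its basal values. The call is therefore weak, and the gene was not tested at a mean of at least 5 TPM. Like every call as lower, it ended when basal 1, basal 2, induced 1 or induced 2 was left out. With the block 2 were higher and 4 lower, against 8.23% and 14% of all genes tested. This list too was chosen with earlier results of these data known, so its counts are no test of it. Those higher, named after their values were seen, were Ece2, an endothelin-converting enzyme that acts at the acidic pH of granules, and Rnpep, an aminopeptidase that removes basic residues. Ece2 stood at 36.4, 38.2 and 34.8 TPM in basal and 48.5, 56.3 and 49.9 TPM in induced libraries, without overlap (log2 difference 0.49, SE 0.13, limma adjusted p = 0.142, and 0.00672 with the block). Besides Pcsk6, those lower with the block were Furin, the convertase of the trans-Golgi network, the lysosomal protease Ctsd, and Prcp, a carboxypeptidase that can inactivate melanocyte-stimulating hormone. Qpctl, the Golgi-resident relative of Qpct, averaged 58.8 ± 5.71 TPM in basal libraries and 50.8 ± 5.10 TPM in induced ones (SD, n = 3 each; limma adjusted p = 0.602). Among the 5 granins, granule cargo proteins, 0 passed and the median was -0.0028. In the blocked fit Chga, chromogranin A, was called higher (log2 difference 0.38, SE 0.48 without the block; limma adjusted p = 0.811 without and 0.0204 with it). Vgf and Scg2 had the smallest p without the block and were called lower with it (log2 differences -0.75 and -0.33; limma adjusted p = 0.0967 and 0.384 without and 0.00128 and 0.0324 in the blocked fit). Of 7 inhibitors of cathepsin L and related proteases, 4 were tested and 0 passed with or without the block. Cst6 and Spock1 had the smallest p of these (log2 differences -0.41 and -0.31, limma adjusted p = 0.389 and 0.648), and Cst3, the secreted cystatin C, stood at 657 ± 41.9 and 633 ± 44.5 TPM (SD, n = 3 each).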

How the data were processed

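RNA levels were measured in 3 basal and 3 induced libraries, made with an AmpliSeq kit per the labels' protocols. The submitters' processing notes give, for the authors' work, build mm10, TopHat2 2.0.9 and Bowtie2 2.1.0.0. The same notes of the authors name Cuffdiff and Cufflinks (both 2.2.0), limma and DESeq2. Their settings are not stated in those notes. The deposited sheet is named for FPKM, but each library column sums to 1000000, so its values are TPM and carry no depth. In amplicon libraries reads need not scale with transcript length, so levels of different genes are not read as relative abundance; ratios to Pomc were compared between libraries. Per the file headers, the authors' tables hold FPKM, log2 fold changes, p-values or q-values and a B score. They served as lists of called genes and for 1 log2 offset, and whether that offset is one of library scale was not tested.

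The TPM were put on a log2(TPM + 1) scale, genes averaging under 1 TPM were dropped, and induced was compared with basal by limma 3.58.1 in R 4.3.3 (eBayes with a trend), p-values being adjusted by Benjamini and Hochberg's method over the 12400 genes, at a threshold of 0.05. The fit was tested on simulated data. Columns were matched to groups by name, since titles carry letters. Deviations from the group means correlated between same-numbered libraries at 0.46, 0.18 and 0.72 over 12400 genes, so the numbers were used as a block beside the fit without it; the pairing comes from the data, not from the labels. Basal 1 with induced 2 gave 0.32 and basal 2 with induced 1 gave 0.28, above the 0.18 of number 2. The members and lists were chosen with earlier results of these data known. Genes named are the members, Pam, cell markers, the called genes of each list or else its 2 smallest p-values, and the 3 nearest in pattern. Alternatives were a pseudocount of 0.1, no filter, a mean of at least 5 TPM, quantile and median ratio scaling, the offset, eBayes without a trend and robust, the block, and left-out libraries; the block with 1 number left out and sign flips of the ratios were chosen after seeing the data.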

Additional observations from a re-analysis of the deposited data

How the results depend on the processing

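Values are log2 differences unless counts are named. With the column number as a replicate block Pcsk1 (0.32), Cpe (-0.44) and Scg5 (-0.36) passed the limma threshold, and the block changed no other call of a member. With the block and 1 number left out, an alternative chosen after seeing the data, those called were Pcsk1 (0.43) and Cpe (-0.37) without number 1, Cpe (-0.53), Pcsk1n (-0.57) and Scg5 (-0.47) without number 2, and Cpe (-0.41) without number 3. The offset of the deposited DESeq2 table reversed Pomc (0.26), Pcsk1n (0.086), Scg5 (0.066), Ctsl (0.17) and Qpct (0.031) and brought Pcsk1 (0.74) past the threshold, by adding the same amount to every gene. The members tested kept their sign and stayed uncalled under the other settings in which they had a value; Qpct had none at a mean of at least 5 TPM. Their sizes moved: with 1 library left out the differences ran from -0.33 to -0.03 for Pomc, 0.19 to 0.47 for Pcsk1, -0.65 to -0.20 for Cpe, -0.65 to -0.13 for Pcsk1n, -0.42 to -0.24 for Scg5, -0.38 to -0.02 for Ctsl and -0.68 to -0.09 for Qpct. Quantile normalization gave no value for Pomc, which ranks first in every library and is made equal by that method. Pcsk2 was tested without a filter only.

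Genes called over the whole sheet numbered 148, against 93 at a mean of at least 5 TPM (fewer genes tested), 2393 with the offset, 2761 with the block, 1799, 1442 and 1425 with the block and number 1, 2 or 3 left out, and 688 without the libraries numbered 3; for these changes other than the filter the cause was not tested. Leaving out 1 library gave between 0 and 255 genes in limma, 0 without basal 1, basal 2 or induced 1, where 1400, 1130 and 1562 genes had an unadjusted p under 0.05. The induced minus basal differences of the ratios to Pomc ranged, with 1 library left out, from -0.62 to 0.13 for Cpe, -0.58 to 0.20 for Pcsk1n, -0.38 to 0.062 for Scg5, -0.35 to 0.31 for Ctsl and -0.59 to 0.24 for Qpct. TPM keep no depth, so no counting error can be given for the low Pcsk2 and Qpct values.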

Other observations

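Genes that act on the Pomc gene were read beside its own level. Of 19 such genes 18 were tested, and 1 passed the limma threshold as lower and 0 as higher, against 1.06% and 0.129% of all genes tested. The median log2 difference was -0.12, against -0.04 for all genes tested. The one that passed was Fos, an immediate early factor that acts on Pomc transcription, at 51.1, 59.6 and 51.6 TPM in basal and 14.7, 16.4 and 16.6 TPM in induced libraries (log2 difference -1.71, limma adjusted p = 0.00840). That call ended when basal 1, basal 2, induced 1 or induced 2 was left out, where no gene of the sheet was called lower. With the block 7 were lower and 1 higher, against 14% and 8.23% of all genes tested. The list was chosen with earlier results of these data known, so these counts describe it and do not test it. The other lower ones, named after their values were seen, were Nr4a1 and Nr4a3 (orphan nuclear receptors downstream of corticotropin-releasing hormone), Nr3c1 (the glucocorticoid receptor), Il6st (the shared receptor chain of interleukin 6 and leukaemia inhibitory factor), Socs3 (its feedback inhibitor) and Crem (a cAMP-responsive modulator), and Hdac2, a histone deacetylase, was the higher one. Nr4a3 was near the floor, with means of 2.38 TPM in basal and 0.950 TPM in induced libraries, and met the filter through its basal values.

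Nr4a1 stood at 20.2, 20.1 and 18.1 TPM in basal and at 11.8, 10.1 and 10.8 TPM in induced libraries, without overlap (log2 difference -0.78, limma adjusted p = 0.0585, or 0.00172 in the blocked fit). The identity factors did not pass: Pitx1, a homeodomain factor of the pituitary, stood at 43.2 ± 9.70 and 44.8 ± 3.63 TPM, and Neurod1, a corticotrope E-box factor, at 67.5 ± 23.2 and 83.1 ± 40.7 TPM (SD, n = 3 each; limma adjusted p = 0.933 and 0.913). Neurod1 was lowest in the library numbered 3 of each group, at 41.4 and 37.0 TPM, where Pomc was highest.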
